A study of Mus musculus with 8 samples.

Results

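The genes described here are 10 imprinted genes that set growth: H19, Igf2, Igf2r, Mest, Cdkn1c, Peg3, Plagl1, Grb10, Meg3 and Ndn. They were taken by name from the 16791 genes of a table of raw UMI counts, where all 10 were present, and they were chosen by a reading of measured values of the same table, so how many of them changed is a description of the choice and not evidence about imprinted genes as a class. Single-cell RNA sequencing had been run on 8 adult mouse hearts, 4 healthy and 4 with a myocardial infarction (MI), to compare resident endothelial cells of the intact and the infarcted ventricle. All mice carried Pdgfb-iCreERT2 and the R26R-Brainbow2.1 (Confetti) reporter, in which Cre is driven by the endothelial gene Pdgfb, and all received 150 mg/kg tamoxifen as a single intraperitoneal dose. In the MI mice the left anterior descending coronary artery was tied permanently 14 days later, and hearts of both groups were taken 21 days after tamoxifen, which was 7 days post-MI. The healthy mice had no operation, so effects of the infarct and of the surgery cannot be told apart. Ventricular cells positive for CD31 and Confetti and negative for podoplanin were sorted, a gate set for Pdgfb-lineage cells that had recombined the reporter.

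Most mammalian genes are read from both parental copies. An imprinted gene is read mainly from the copy of one parent, under control regions whose DNA was methylated in the egg or in the sperm and not in the other, and many such genes act on fetal growth. Igf2 encodes a fetal growth factor read from the paternal copy, and H19, its neighbour, is a long non-coding RNA read from the maternal copy under a shared control region. Igf2r encodes the receptor that removes IGF2 for degradation. Grb10 encodes an adaptor that dampens insulin and IGF receptor signalling. Cdkn1c encodes an inhibitor of cyclin-dependent kinases, Plagl1 and Peg3 encode zinc finger proteins, Ndn encodes a MAGE-family protein that restrains cell growth, Mest encodes a hydrolase-like protein of the endoplasmic reticulum, and Meg3 is a maternally read long non-coding RNA. These genes are high in the fetus and mostly fall after birth. The UMIs were not assigned to a parental copy, so the values say nothing on imprinting itself.

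In GRCm38 (GENCODE) the members lie on 6 chromosomes. H19 (chr7:142575529-142578143), Igf2 (chr7:142650766-142666816) and Cdkn1c (chr7:143458339-143461050) share the distal end of chromosome 7 on the minus strand, Peg3 (chr7:6703892-6730431) and Ndn (chr7:62346569-62350262) lie elsewhere on it, and the others are Mest (chr6:30723547-30748465), Plagl1 (chr10:13060504-13131694), Grb10 (chr11:11930508-12038683), Meg3 (chr12:109541001-109571726) and Igf2r (chr17:12682406-12769664). 3 members are also hosts of microRNAs, small RNAs that the sequencing did not measure. They are shown because Mest is the member that was higher after MI, and H19 and Igf2 are the members with the largest difference between a class and the other endothelial cells. The RefSeq mature sequences (GRCm38.p6) are printed 5′ to 3′ with the seed, bases 2 to 8, in capitals. The Mest pair lies in an intron of all 7 Mest transcripts that span it, the H19 pair in an exon of 3 of the 4 H19 transcripts that span it, and the Igf2 pair in an intron of all 7 Igf2 transcripts that span it.
mmu-miR-335-5p (chr6:30741314-30741336, plus strand, in Mest): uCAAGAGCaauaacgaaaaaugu
mmu-miR-335-3p (chr6:30741354-30741375, plus strand, in Mest): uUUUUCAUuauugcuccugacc
mmu-miR-675-5p (chr7:142577112-142577133, minus strand, in H19): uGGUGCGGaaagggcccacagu
mmu-miR-675-3p (chr7:142577078-142577099, minus strand, in H19): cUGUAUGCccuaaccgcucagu
mmu-miR-483-5p (chr7:142654968-142654989, minus strand, in Igf2): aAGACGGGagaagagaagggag
mmu-miR-483-3p (chr7:142654932-142654952, minus strand, in Igf2): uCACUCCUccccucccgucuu

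No seed is shared among the 6. A window of 300 bases around a RefSeq transcript start is shown for Mest, the member that rose after MI, and for Igf2 and Plagl1, which were high together in the same endothelial class, with each CG dinucleotide, the base pair at which imprints are methylated, in capitals. RefSeq promoter windows were found for 8 of the 10 members, all but H19 and Cdkn1c. The Mest window holds 17 CG, the Igf2 window 24 and the Plagl1 window 26, against a median of 7 over the 32851 windows of the table. Of all windows 31.4% hold at least 17 and 16.9% at least 26, so CG counts of this size are common among promoters. The start with the most CG is shown: the other Mest windows hold 8 and 17 CG and the other Igf2 windows 2, 7 and 14, and the UMI counts did not tell which start was used.
Mest (chr6:30737800-30738099, plus strand): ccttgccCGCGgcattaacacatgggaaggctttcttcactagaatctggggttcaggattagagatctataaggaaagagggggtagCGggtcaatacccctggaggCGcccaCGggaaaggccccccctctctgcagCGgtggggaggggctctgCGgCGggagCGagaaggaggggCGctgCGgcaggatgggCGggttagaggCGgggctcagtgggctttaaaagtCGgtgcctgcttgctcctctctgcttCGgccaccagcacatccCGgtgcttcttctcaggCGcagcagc
Igf2 (chr7:142658755-142659054, minus strand): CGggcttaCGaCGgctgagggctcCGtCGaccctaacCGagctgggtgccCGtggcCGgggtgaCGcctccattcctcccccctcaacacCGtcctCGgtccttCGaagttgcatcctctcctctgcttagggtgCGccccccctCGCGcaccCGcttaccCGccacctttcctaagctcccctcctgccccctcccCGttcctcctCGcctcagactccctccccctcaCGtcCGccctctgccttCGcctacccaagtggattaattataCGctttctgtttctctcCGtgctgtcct
Plagl1 (chr10:13090582-13090881, plus strand): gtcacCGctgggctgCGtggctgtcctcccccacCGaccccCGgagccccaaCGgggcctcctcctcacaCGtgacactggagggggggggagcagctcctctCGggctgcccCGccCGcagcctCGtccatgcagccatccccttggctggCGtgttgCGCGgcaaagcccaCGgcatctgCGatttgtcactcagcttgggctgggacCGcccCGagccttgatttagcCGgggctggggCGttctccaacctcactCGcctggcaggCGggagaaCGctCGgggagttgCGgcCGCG

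The table held 31028 cells. Of these, 28906 (93.2%) were kept as endothelial, and 1333 haematopoietic, 539 pericyte or smooth muscle, 87 fibroblast and 163 erythroid or platelet cells were set aside by marker genes. The endothelial genes Pecam1 and Cdh5 stood at 789 and 1037 CPM in healthy and 912 and 992 CPM in MI endothelial cells, pooled over mice. In the cells set aside, Pecam1 stood at 130 to 427 CPM and Cdh5 at 38.4 to 501 CPM over the types and groups, so these cells held endothelial transcripts too. Endothelial UMIs per mouse came to between 6401093 and 7603706 in healthy and between 14340671 and 23792908 in MI hearts, and the median per cell was 1469 to 2075 against 3397 to 4678, so group comparisons use UMIs summed per mouse and scaled to a total of 1000000 per mouse (counts per this many UMIs, CPM). Libraries Healthy 228 and Healthy 239 shared 2041 barcodes, of which 2030 carried nearly the same counts, and Healthy 227 and Healthy 228 shared 316, of which 301 did. Which library they came from is not known. In the analysis without copied cells the shallower cell of each pair was left out, which took 55.3% of the cells from Healthy 228 and left nearly all their partners in Healthy 239. Xist stood at 57.6 CPM in Healthy 227 and 0.504 CPM in MI 244, against 1015 to 1181 CPM in the other 6 mice, so 1 library of each group differs from the rest in this gene.

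Mest was higher and Cdkn1c lower in MI than in healthy endothelial cells, and these were the only members called of the 9 that passed the filter on low counts. Over all 12285 genes tested, 38.4% were called in this comparison, so a changed gene was common. Mest stood at 59.7, 73.1, 94.4 and 104.2 CPM in Healthy 227, 228, 239 and 240. In MI 244, 250, 255 and 256 it stood at 334.7, 364.2, 325.2 and 207.0 CPM. The groups did not overlap, and MI 256 was the lowest of the MI mice. How many of all genes separate in this way was not counted, here or within a class. The mean rose 3.72-fold, from 82.8 ± 20.2 to 307.8 ± 69.2 CPM (SD, n = 4), and the fitted log2 fold change was 1.81 (SE 0.20, edgeR quasi-likelihood test, adjusted p = 0.000317).

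Cdkn1c, the brake on the cell cycle, moved the other way. It stood at 656.3, 506.7, 456.1 and 447.0 CPM in Healthy 227, 228, 239 and 240. In MI 244, 250, 255 and 256 it stood at 109.9, 227.3, 101.2 and 238.7 CPM. The groups did not overlap, and the MI mice fell into a lower pair (244 and 255) and a higher pair (250 and 256). The mean was 3.05-fold higher in healthy hearts, 516.5 ± 96.8 against 169.3 ± 73.8 CPM (SD, n = 4), and the log2 fold change was -1.69 (SE 0.29, adjusted p = 0.00193). Both calls held in all 17 alternative analyses, with log2 fold changes from 1.67 to 1.95 for Mest and from -1.90 to -1.42 for Cdkn1c. Mest and Cdkn1c were called without cycling cells, without copied cells and with Xist as a covariate.

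**Figure D1:**
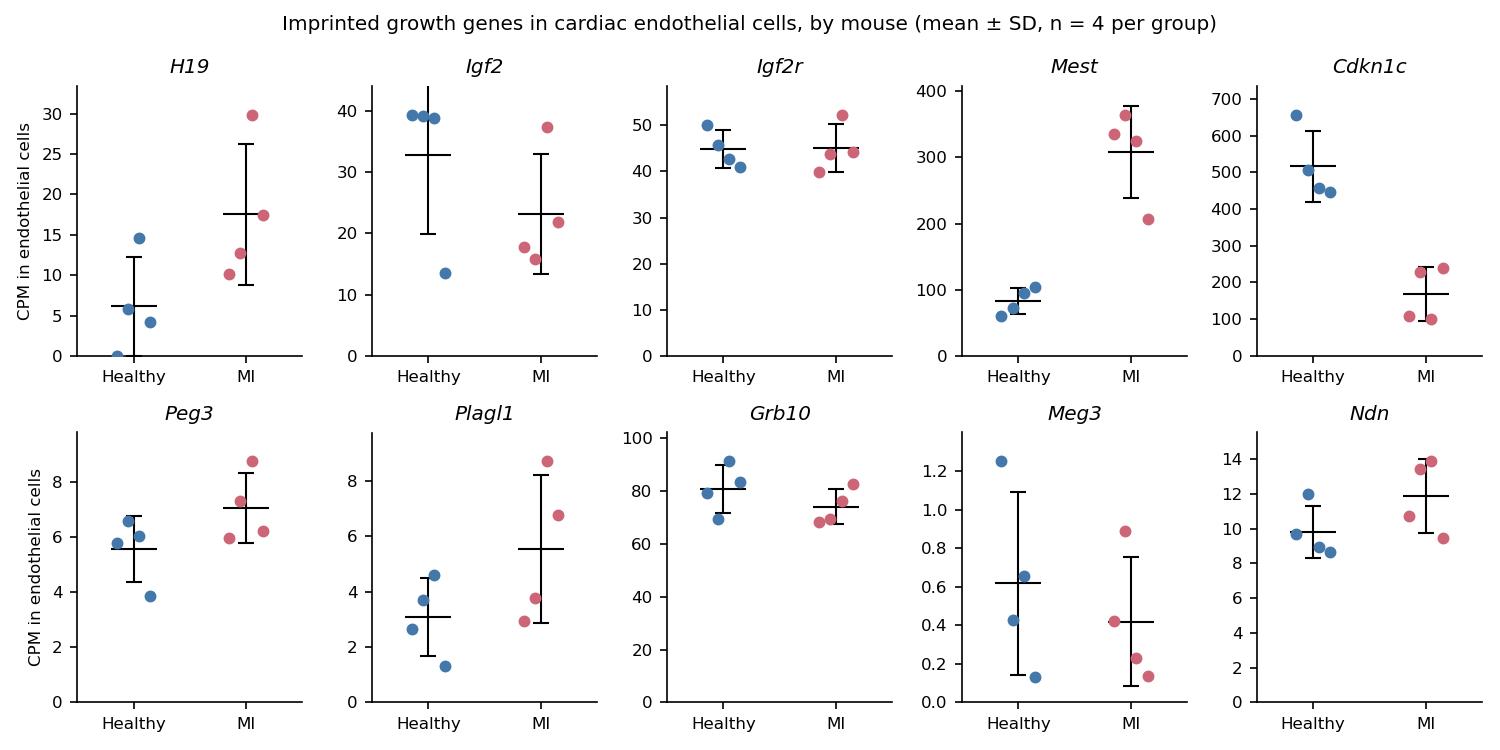
Level of each imprinted growth gene in endothelial cells, in CPM on linear axes that start at 0, with 1 point for each mouse and bars for the mean ± SD of the 4 healthy and the 4 MI mice. The points of Mest and Cdkn1c separate by group, and those of the other 8 genes overlap. Of all genes tested 38.4% were called in this comparison, and the share whose points separate was not counted.

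The members that act on IGF signalling, Igf2, Igf2r and Grb10, did not pass the test in the pooled endothelium. Igf2, the growth factor, stood at 39.4, 39.1 and 38.9 CPM in Healthy 227, 228 and 239 and at 13.6 CPM in Healthy 240. It stood at 17.8, 15.8, 37.4 and 21.9 CPM in MI 244, 250, 255 and 256. Healthy 240 lay below every MI mouse, and the log2 fold change was -0.58 (SE 0.35, adjusted p = 0.208). Without Healthy 240 it was -0.84 with an adjusted p of 0.0337, so that library decided the call. Without MI 255 it was -0.90 with an adjusted p of 0.0619. Igf2r, which clears IGF2, held a near-constant level of 44.8 ± 4.0 CPM in healthy and 45.0 ± 5.2 CPM in MI mice (SD, n = 4), and the 95% interval of its log2 difference ran from -0.30 to 0.14. Grb10, the receptor adaptor, stood at 80.8 ± 9.0 and 74.0 ± 6.6 CPM, with a log2 fold change of -0.21 (SE 0.10, adjusted p = 0.114). It passed in 1 of 17 alternatives, without MI 256, at an adjusted p of 0.0441.

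H19 was low and uneven. It stood at 0, 5.85, 14.6 and 4.25 CPM in Healthy 227, 228, 239 and 240, where 0 UMIs in Healthy 227 allow a level of up to 0.469 CPM, counting error only. In MI 244, 250, 255 and 256 it stood at 10.1, 12.8, 29.9 and 17.5 CPM. Healthy 239 lay above MI 244 and MI 250, and the other healthy mice lay below every MI mouse. The log2 fold change was 1.39 (SE 0.65, adjusted p = 0.116). Without the copied cells H19 in Healthy 228 stood at 0.412 CPM, while Healthy 239 kept the partner cells and its 14.6 CPM, and the fold change became 1.67 with an adjusted p of 0.111. H19 passed in 4 of 17 alternatives: without Healthy 239 (2.25, adjusted p = 0.0297), with cells thinned to 1000 UMIs (1.86, adjusted p = 0.0293), with stricter removal of other cell types (1.77, adjusted p = 0.0433) and without cells placed by Cytl1 (2.29, adjusted p = 0.0181). Over all 17 the adjusted p ran from 0.0181 to 0.321.

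The zinc finger and MAGE-family genes were at the low end. Plagl1 stood at 1.33 to 4.60 CPM in healthy and 2.94 to 8.70 CPM in MI mice, with a log2 fold change of 0.75 (SE 0.42, adjusted p = 0.184). Peg3 stood at 3.85 to 6.57 and 5.97 to 8.74 CPM, and Ndn at 8.64 to 12.0 and 9.48 to 13.9 CPM, with log2 fold changes of 0.26 and 0.19 that were not called. Meg3 did not pass the filter on low counts. It held 17 UMIs in all healthy and 38 in all MI endothelial cells, and 17 of the latter lay in 1 cell.

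Shares of cells gave the same picture for the called pair. With each cell thinned to 1000 UMIs, so that depth was equal, 4.09% to 8.26% of healthy and 13.5% to 22.6% of MI endothelial cells held a Mest UMI. Unthinned, the shares were 11.6% ± 2.7 and 47.1% ± 8.7 (SD, n = 4). A Cdkn1c UMI was held by 31.1% to 40.2% of thinned healthy cells and 10.5% to 21.1% of thinned MI cells. Unthinned, the Cdkn1c shares were 50.1% ± 4.9 and 39.0% ± 8.2. In cells set aside as haematopoietic, where median depth was 3868 UMIs in healthy and 7005 in MI mice against 1896 and 4135 in endothelial cells, the thinned shares were 1.55% and 4.26% for Mest and 4.66% and 3.72% for Cdkn1c. Thinning left out the endothelial cells under 1000 UMIs, which were 314, 930, 245 and 125 in Healthy 227, 228, 239 and 240 and 0 in each MI mouse.

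Mest and Cdkn1c also tended to lie in different cells. Among thinned cells with a Mest UMI, 16.0% to 22.9% held Cdkn1c in healthy mice, against 31.9% to 40.9% of the cells without Mest. In MI mice the shares were 6.51% to 15% and 10.9% to 22.7%. The share was lower among Mest cells within each of the 8 mice. Cells of all classes were pooled in this comparison.

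Endothelial cells were then placed by the UMIs of 5 marker genes, in this order: cycling cells with Top2a, cells with Cytl1, a gene of endocardial-like cells, cells high in Plvap, sprouting cells with Apln and capillary cells with Car4. The members took no part in the placing. A class resting on 1 gene is named here by that gene. Healthy and MI mice held 33 to 49 and 196 to 586 Top2a+ cells, 4 to 35 and 39 to 101 Cytl1+ cells, 3 to 6 and 147 to 658 Plvap-high cells, 115 to 248 and 535 to 953 Apln+ cells, and 975 to 1109 and 296 to 1211 Car4+ cells. A marker with few UMIs is found more often in deeper cells, so class sizes are not compared between groups. Depth can also change which cells enter a class. Within its own class the mean level in healthy and MI mice was 629 and 448 CPM for Apln. It was 910 and 534 CPM for Top2a and 777 and 447 CPM for Car4. Cells were placed before thinning, and the part of placing in the MI comparisons within and between classes was not tested.

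In the healthy heart Mest stood higher in Apln+ and Top2a+ cells than in Car4+ and unmarked cells, and after MI its level was higher in Car4+ and unmarked cells too. Apln+ and Top2a+ cells held 27.8% and 10.1% of the healthy Mest UMIs, and the more numerous Car4+ and unmarked cells held 22.9% and 38.8%. In healthy Car4+ cells Mest stood at 40.2, 44.8, 67.8 and 84.2 CPM in mice 227, 228, 239 and 240. In MI Car4+ cells it stood at 278.0, 319.2, 359.1 and 166.0 CPM in mice 244, 250, 255 and 256. The groups did not overlap, and the lowest MI mouse lay well above the highest healthy mouse. The log2 fold change was 2.16 (SE 0.24, adjusted p = 0.000177), in a comparison of 9900 genes of which 21.2% were called and in which 3 of the 7 members tested were called.

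In Apln+ cells Mest was already high without infarction, at 241.0, 232.6, 346.8 and 232.6 CPM in Healthy 227, 228, 239 and 240. It stood at 494.8, 540.6, 520.6 and 387.0 CPM in MI 244, 250, 255 and 256. The groups again did not overlap. The log2 fold change was 0.81 (SE 0.14, adjusted p = 0.00208), and Mest was the only one of the 5 members tested that was called, where 12.2% of 9456 genes were. In Top2a+ cells Mest stood at 220.5, 297.7, 319.9 and 255.9 CPM in Healthy 227, 228, 239 and 240. It stood at 381.2, 481.5, 367.7 and 308.4 CPM in MI 244, 250, 255 and 256, and MI 256 lay below Healthy 239. The log2 fold change was 0.44 (SE 0.16, adjusted p = 0.141), and none of the 5 members tested was called by edgeR in Top2a+ cells, where 4.57% of 8017 genes were. At an unadjusted p under 0.05, 2 members (Mest and Cdkn1c) passed there, as did 1628 of the 8017 genes, and DESeq2 called 0 members.

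The MI effect on Mest differed between classes on the log2 scale, by a test of the difference itself. This test compares ratios of MI to healthy levels, and rises in CPM were not tested. Mean Mest went from 59.3 to 280.6 CPM in Car4+ and from 263.2 to 485.8 CPM in Apln+ cells. In Top2a+ cells it went from 273.5 to 384.7 CPM. Compared with Car4+ cells, the log2 effect was lower by 1.29 in Apln+ cells (log2 difference -1.29, SE 0.14, adjusted p = 4.91e-09) and by 1.66 in Top2a+ cells (log2 difference -1.66, SE 0.19, adjusted p = 5.67e-07). Such differences were called for 3.82% of 11001 and 3.51% of 11353 genes, and Mest was the only member called in each. The order of Mest levels in healthy hearts was Top2a+ (273.5 ± 44.2 CPM) and Apln+ cells (263.2 ± 55.8), whose ranges overlapped, far above Car4+ cells (59.3 ± 20.6) and cells without a marker (58.6 ± 17.9), whose ranges also overlapped (SD, n = 4). In MI hearts it was Apln+ (485.8 ± 68.5 CPM), Top2a+ (384.7 ± 71.8), Car4+ (280.6 ± 83.2), Cytl1+ (239.3 ± 114.4), unmarked (227.7 ± 63.2) and Plvap-high cells (188.0 ± 23.2), and the range of each class overlapped that of its neighbours. Within each of the 4 MI mice Mest was higher in Apln+ than in Top2a+ cells, in Top2a+ than in Car4+ cells and in Car4+ than in unmarked cells.

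**Figure D2:**
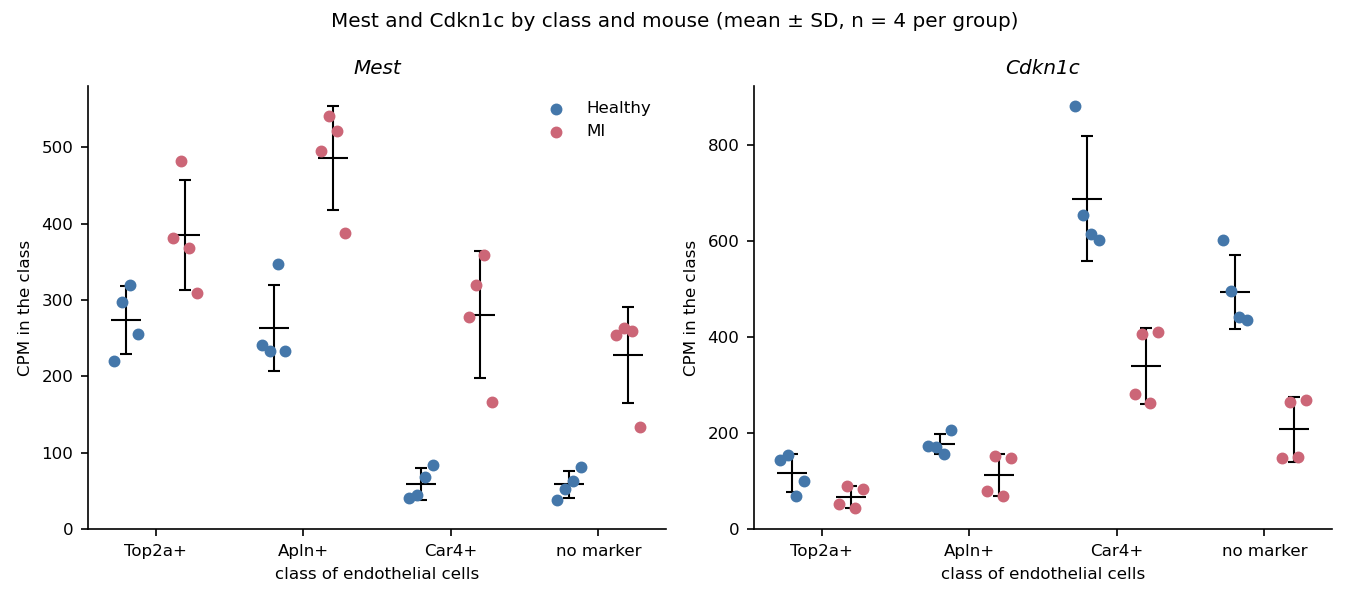
CPM of Mest and Cdkn1c in Top2a+, Apln+, Car4+ and unmarked endothelial cells, with 1 point for each healthy or MI mouse and bars for the mean ± SD of 4 mice, on linear axes from 0. Mest is lowest in the healthy Car4+ (59.3) and unmarked cells (58.6), and Cdkn1c is highest in the healthy Car4+ cells.

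Cdkn1c was highest in Car4+ cells in both groups. In healthy Car4+ cells it stood at 879.9, 652.9, 613.3 and 602.1 CPM in mice 227, 228, 239 and 240. In MI Car4+ cells it stood at 281.2, 405.1, 261.9 and 409.1 CPM in mice 244, 250, 255 and 256. The groups did not overlap, and the log2 fold change was -1.08 (SE 0.17, adjusted p = 0.00126). In Apln+ cells Cdkn1c stood at 171.9, 171.5, 156.5 and 206.2 CPM in the healthy and at 79.8, 151.9, 68.4 and 148.4 CPM in the MI mice, in the same order. The groups did not overlap, but with a log2 fold change of -0.74 (SE 0.24) the adjusted p was 0.0571. It lay between 0.0167 and 0.412 over the 14 alternatives and under the threshold in 5 of them. In Top2a+ cells Cdkn1c stood at 68.5 to 153.1 CPM in healthy and 42.9 to 88.9 CPM in MI mice, with a log2 fold change of -0.91 (SE 0.31, adjusted p = 0.111). The MI effect on Cdkn1c did not pass a test of a difference between classes in the main analysis: the log2 difference from Car4+ cells was 0.30 in Apln+ cells (95% interval 0.07 to 0.53, adjusted p = 0.158) and 0.24 in Top2a+ cells (95% interval -0.11 to 0.59, adjusted p = 0.567). The Apln+ difference passed in 4 of 14 alternatives, with no filter on low counts (adjusted p = 0.0134), without Healthy 240 (adjusted p = 0.0173) or MI 255 (adjusted p = 0.0371) and with overlapping classes (0.52, adjusted p = 0.00144), and the Top2a+ difference passed with overlapping classes (0.70, adjusted p = 0.00798).

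Of the other members, Grb10 was lower after MI in Car4+ cells. It stood at 82.1, 72.8, 98.6 and 85.9 CPM in Healthy 227, 228, 239 and 240, and at 68.4, 67.6, 70.4 and 74.0 CPM in MI 244, 250, 255 and 256. The value of MI 256 lay above that of Healthy 228. The log2 fold change was -0.35 (SE 0.10, adjusted p = 0.0319), and the call held in 7 of 14 alternatives. It was lost on leaving out Healthy 239 or 240 or MI 244, 250 or 255, with adjusted p from 0.0551 to 0.105, in DESeq2 (adjusted p = 0.0526) and on thinning (adjusted p = 0.144). Igf2r, at a log2 fold change of -0.26 (SE 0.11, adjusted p = 0.108), Igf2, Peg3 and Ndn were not called in these cells. H19 was below the filter on low counts there, with 1 UMI in the 4086 healthy and 84 in the 2874 MI Car4+ cells. In several alternatives it entered the test, through the MI group where it is high, so no test of it is given. With it, the count of members called ran from 2 to 4 over the alternatives.

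**Figure D3:**
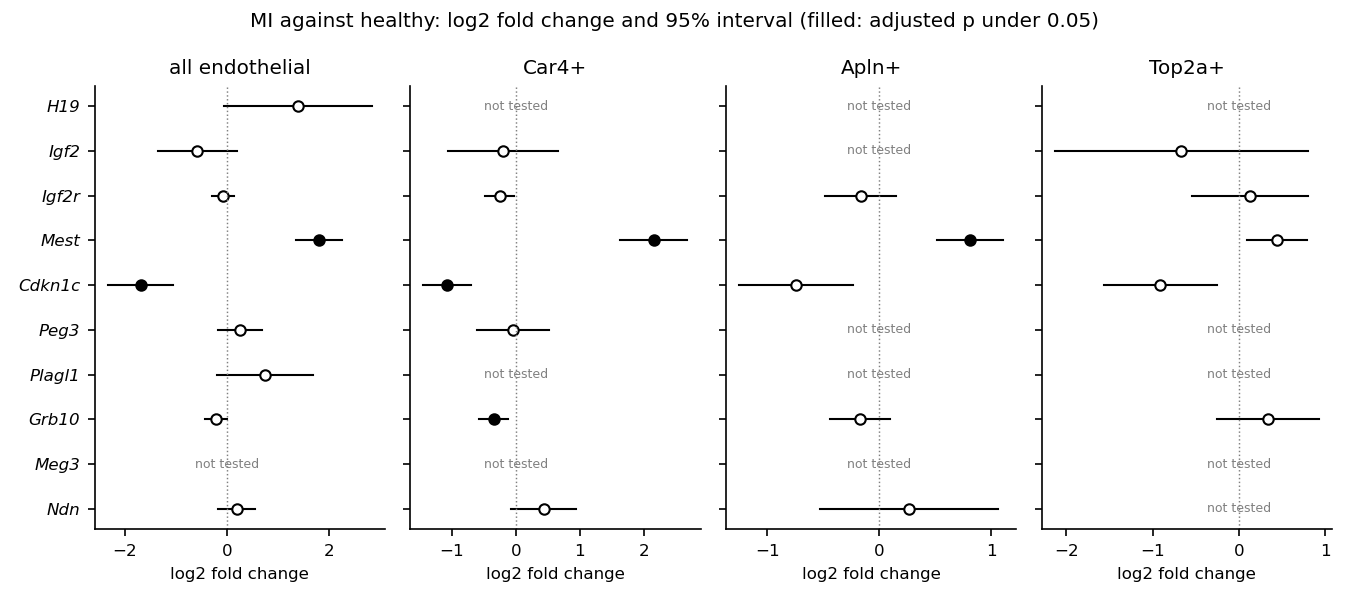
Log2 fold change of each imprinted growth gene between MI and healthy mice, with its 95% interval, in all endothelial cells and within Car4+, Apln+ and Top2a+ cells. Filled points passed an adjusted p of 0.05 in edgeR, genes marked as not tested were below the filter on low counts, and the horizontal axes differ between panels. The Mest point lies at 2.16 in Car4+ and 0.81 in Apln+ cells.

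H19, Igf2 and Plagl1 stood far higher in Cytl1+ cells than in other endothelial cells. Each was compared between these cells and all other endothelial cells of the same mouse, in the 5 mice with at least 20 Cytl1+ cells, which were Healthy 239 and the 4 MI mice. Of 12124 genes 10.2% were called, and 7 of the 9 members tested were. Plvap-high healthy cells and the Cytl1+ cells of the other healthy mice were too few for a test within the class.

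H19 stood at 735.1 CPM in the Cytl1+ cells of Healthy 239 and at 148.3, 529.1, 355.6 and 444.0 CPM in those of MI 244, 250, 255 and 256. In the other endothelial cells of the same mice it stood at 3.74, 8.78, 4.42, 20.6 and 8.26 CPM. Every Cytl1+ value lay above every other value. The log2 difference was 5.45 (SE 0.21, adjusted p = 1.36e-36). In MI hearts Cytl1+ cells were 1.63% of the endothelial cells and held 40.4% of their H19, 20.9% of their Igf2 and 21.3% of their Plagl1 UMIs. In healthy hearts, with copied cells included, 0.568% of the cells held 68.5%, 10.6% and 22.7%. Most Igf2 and Plagl1 UMIs therefore lay outside the class, and 72.4% of the healthy Igf2 UMIs lay in unmarked cells.

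Igf2 stood at 558.0 CPM in the Cytl1+ cells of Healthy 239 and at 191.9, 267.2, 319.2 and 217.1 CPM in those of MI 244, 250, 255 and 256. In the other cells it stood at 31.1, 16.1, 11.7, 29.4 and 17.7 CPM. The sets did not overlap, and the log2 difference was 3.79 (SE 0.13, adjusted p = 6.08e-39). Plagl1 stood at 70.9 CPM in the Cytl1+ cells of Healthy 239 and at 26.2, 66.1, 67.8 and 75.7 CPM in those of the MI mice in the same order, against 2.72 to 7.02 CPM in the other cells. Its log2 difference was 3.77 (SE 0.27, adjusted p = 7.52e-20).

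**Figure D4:**
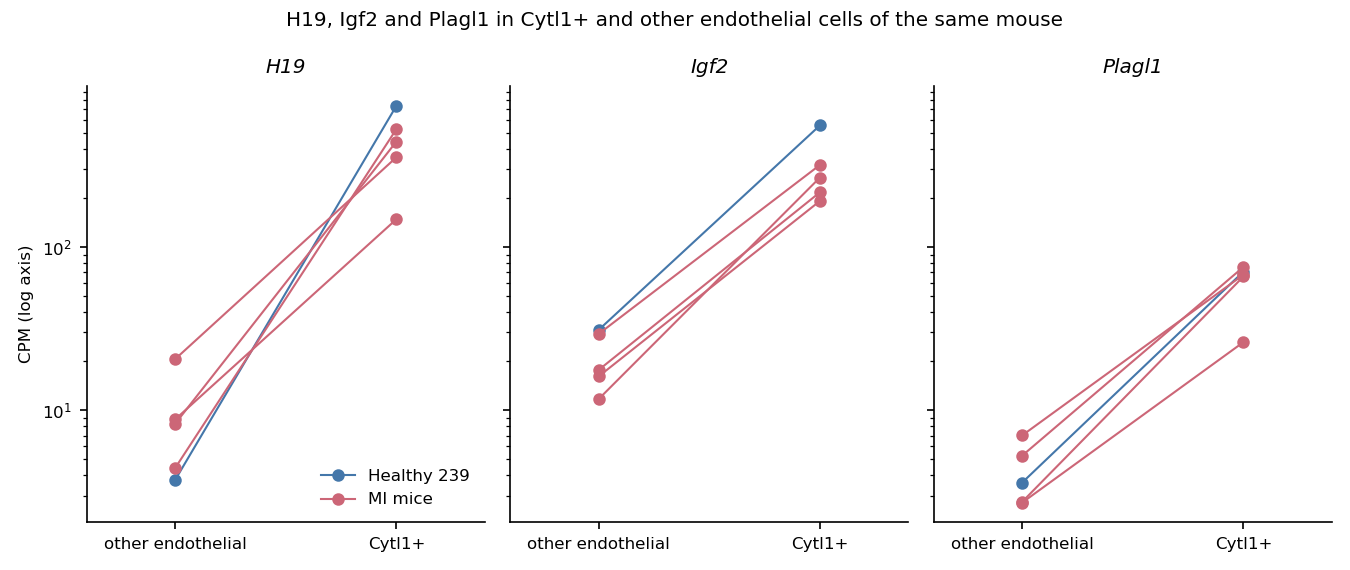
CPM of H19, Igf2 and Plagl1 on a log axis in Cytl1+ cells and in the other endothelial cells, with a line joining the values of 1 mouse (Healthy 239 and the 4 MI mice). Every line goes up.

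Other members rose less in the Cytl1+ cells. Igf2r was higher by a log2 difference of 0.58 (SE 0.17, adjusted p = 0.0107), Peg3 by 1.34 (SE 0.35, adjusted p = 0.00471) and Ndn by 1.11 (SE 0.30, adjusted p = 0.00676). The Peg3 and Ndn differences rest on few UMIs, 30 and 41 in the Cytl1+ cells of the MI mice. With cells thinned to 1000 UMIs, Peg3 stood at -0.03 and Ndn at 0.40, neither called. Both calls were also lost without MI 255, at 1.15 with an adjusted p of 0.166 and at 0.73 with an adjusted p of 0.409, and DESeq2 did not call Ndn (adjusted p = 0.0887) or Mest (adjusted p = 0.0714). The Igf2r call was lost on thinning and without MI 256, where it was 0.45 with an adjusted p of 0.163. Mest was lower by 0.47 (log2 difference -0.47, SE 0.12, adjusted p = 0.00303) and was called in 11 of 14 alternatives. Some of the 14 left out a healthy mouse with too few Cytl1+ cells. Such mice were not part of this comparison, so leaving them out could not change any of its calls. Mest was not called without MI 256, at -0.35 with an adjusted p of 0.103. With overlapping classes it was not called either, at -0.175 with an adjusted p of 0.478, and with 2 marker UMIs it stood at -1.81. Cdkn1c and Grb10 were not called in the main analysis. Members called in Cytl1+ cells numbered 5 on thinning and 6 without MI 255, and each count includes a member that the main analysis did not call.

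Within the Cytl1+ class the 3 genes were held by a minority of cells that overlapped. Of 262 Cytl1+ MI cells, 45 held an H19 UMI, 74 an Igf2 UMI and 51 a Plagl1 UMI. Igf2 was found in 68.9% of the H19 cells (95% exact binomial interval 53.4 to 81.8) and in 19.8% of the cells without H19 (14.7 to 25.7). Plagl1 was found in 57.8% of the H19 cells (42.2 to 72.3) and in 11.5% of the cells without H19 (7.60 to 16.5). Plagl1 was found in 33.8% of the Igf2 cells (23.2 to 45.7) and in 13.8% of the cells without Igf2 (9.24 to 19.6). The 73 healthy Cytl1+ cells include copied cells, among them 3 of Healthy 228 with at least 5 H19 UMIs. The same cell can thus be counted more than once, and the shares were not counted without copies. Of the 73 cells, 13 held H19. Igf2 was found in 61.5% of these (31.6 to 86.1) and in 21.7% of the others (12.1 to 34.2), and Plagl1 in 61.5% (31.6 to 86.1) and 3.33% (0.406 to 11.5). For Plagl1 with and without Igf2 the healthy shares were 19% (5.45 to 41.9) and 11.5% (4.35 to 23.4), whose intervals overlap. The cells come from 4 mice a group and the intervals cover counting error only. Those of the healthy cells treat copied cells as separate cells, so they are too narrow even for that. These shares use all UMIs of a cell, depth was not made equal between the cells compared, and its part was not tested.

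H19 was carried by few cells in any class. Endothelial cells with at least 5 H19 UMIs numbered 0, 4, 5 and 2 in Healthy 227, 228, 239 and 240 and 11, 12, 31 and 11 in MI 244, 250, 255 and 256. The 4 of Healthy 228 were all copied cells, whose removal left 0.412 CPM in that library, so fewer than 11 distinct healthy cells stand behind these counts. The H19-rich cells held 81.5% of the H19 UMIs of healthy and 80.2% of those of MI endothelial cells, and the richest cell held 71. Of the 65 such MI cells, 27 were Cytl1+, 13 Plvap-high, 5 Top2a+, 2 Car4+ and 1 Apln+, and 17 had no marker. Igf2 was found in 67.7% and Plagl1 in 53.8% of these 65, against 4.70% and 1.58% of the 15787 MI endothelial cells with no H19, whose median depth was 4112 UMIs against 5893. Of all thinned MI endothelial cells 0.678% held an H19 UMI, against 0.709% of thinned haematopoietic cells, so the share of cells with any H19 UMI was no higher than in haematopoietic cells. Without the Cytl1+ cells, the MI fold change of H19 was 2.29 on the log2 scale with an adjusted p of 0.0181, an analysis added after the levels were seen, so the difference was at least as large without them.

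Genes of the fibroblast marker list moved with the Cytl1+ class. Their summed level was 209 to 797 CPM in Cytl1+ cells and 23.9 to 44.4 CPM in the other endothelial cells of the 5 mice. Dcn stood at 273 against 8.56 CPM, Mfap5 at 57.1 against 9.20, Lum at 47.9 against 1.45 and Col3a1 at 18.4 against 3.1. Cthrc1 stood at 17.2 against 5.61, Col1a2 at 9.21 against 2.37, Fbln1 at 4.3 against 1.0 and Col1a1 at 1.84 against 1.43. Postn (2.46 against 2.52), Pdgfra (0.614 against 0.859) and Dpt (0.614 against 0.748) were not higher. Tcf21 held 0 UMIs against 2, too few to compare. Cells passing the fibroblast gate had been set aside, and those of MI mice held 140 H19 UMIs in 10 of 59 cells, with 2 Igf2 UMIs. Over all endothelial cells the fibroblast list summed to 14.7 to 35.4 CPM in healthy and 36.4 to 59.1 CPM in MI mice. The part of fibroblasts in the H19 results, by class and after MI, was not tested.

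The remaining classes were mostly low in H19, Igf2 and Plagl1 and split by Mest and Cdkn1c. Exceptions were 17 healthy Plvap-high cells, with H19 at 384 and Plagl1 at 160 CPM pooled over mice (24 and 10 UMIs, no test). Unmarked cells were another for Igf2, which stood above the other endothelial cells in 4 of 4 mice of each group. Plvap-high cells of the MI mice were a further exception. Plagl1 was higher there, and H19 was not called, at a mean of 16.3 against 17.6 CPM in the other endothelial cells. In Apln+ cells, compared in 8 mice, Mest was higher by a log2 difference of 1.37 (SE 0.14, adjusted p = 7.17e-07) and higher in 8 of 8 mice, and Cdkn1c was lower (-1.02, SE 0.12, adjusted p = 5.04e-06). H19 (-2.44), Igf2 (-1.57) and Plagl1 (-0.81) were also lower, which made 5 of 9 members where 20% of 12473 genes were called. No H19 UMI fell in any of the 760 healthy Apln+ cells.

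In Top2a+ cells 6 of 9 members were called, where 39.1% of 12454 genes were. Mest was higher (0.90, SE 0.18, adjusted p = 0.000603) and Cdkn1c lower (-1.73, SE 0.13, adjusted p = 7.65e-09), in 8 of 8 mice each. H19 (-1.23), Plagl1 (-0.86), Igf2 (-0.75) and Grb10 (-0.32) were lower. Healthy Top2a+ cells held 1 H19 and 0 Plagl1 UMIs, and 0 UMIs in a healthy mouse allow up to 11.5 to 17.1 CPM. The other healthy cells stood at means of 6.32 and 3.17 CPM, so the healthy mice alone could not show H19 or Plagl1 as lower. The Grb10 and H19 calls each held in 13 of 15 alternatives and that of Plagl1 in 12 of 14, with an adjusted p of up to 0.0801 for Grb10. In Car4+ cells 6 of 9 members were called, where 27.1% of 11870 genes were. Cdkn1c was higher there (1.03, SE 0.09, adjusted p = 5.30e-09) in 8 of 8 mice, and H19 (-1.67), Plagl1 (-1.47), Igf2 (-1.27), Ndn (-0.37) and Mest (-0.31) were lower, the Ndn call holding in 7 of 15 alternatives.

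Plvap-high cells were compared in the 4 MI mice, and 6 of 9 members were called, where 32.7% of 12573 genes were. Cdkn1c (-1.61, SE 0.10, adjusted p = 3.91e-08), Mest (-0.75), Igf2 (-1.14) and Ndn (-0.54) were lower. Grb10 was higher by 0.38 (SE 0.09, adjusted p = 0.00645) and Plagl1 by 0.71 (SE 0.21, adjusted p = 0.0182), and both were higher in 4 of 4 mice. The Plagl1 and Ndn calls each held in 10 of 15 alternatives. Leaving out a healthy mouse or the copied cells could not change these calls, since only MI mice were compared. That of Plagl1 was lost without MI 244 (0.64, adjusted p = 0.0708) and MI 255 (0.65, adjusted p = 0.157), in DESeq2 (adjusted p = 0.0697), on thinning (adjusted p = 0.111) and with a higher marker minimum (adjusted p = 0.0613). That of Ndn was lost without MI 244 (adjusted p = 0.13) and MI 255 (-0.23, adjusted p = 0.483), in DESeq2 (adjusted p = 0.204) and on thinning (adjusted p = 0.402). The Grb10 call was lost on thinning (adjusted p = 0.15), and the Igf2 call on thinning (-0.39, adjusted p = 0.374) and with overlapping classes (0.16, adjusted p = 0.571). The Cytl1+ cells stand on the other side of each of these comparisons. Without them H19 went from 0.05 (adjusted p = 0.861) to 0.89 (adjusted p = 0.00406) in Plvap-high cells, and Ndn was not called there (-0.49, adjusted p = 0.0584) or in Car4+ cells (-0.33, adjusted p = 0.0514). Without them H19 was not called in Top2a+ (-0.41, adjusted p = 0.336) or Car4+ cells (-0.51, adjusted p = 0.265), nor Plagl1 in Top2a+ (-0.53, adjusted p = 0.104) or Apln+ cells (-0.46, adjusted p = 0.203). The lower Mest of Car4+ cells reversed to 0.25 with an adjusted p of 0.00111 when a cell could belong to several classes.

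**Figure D5:**
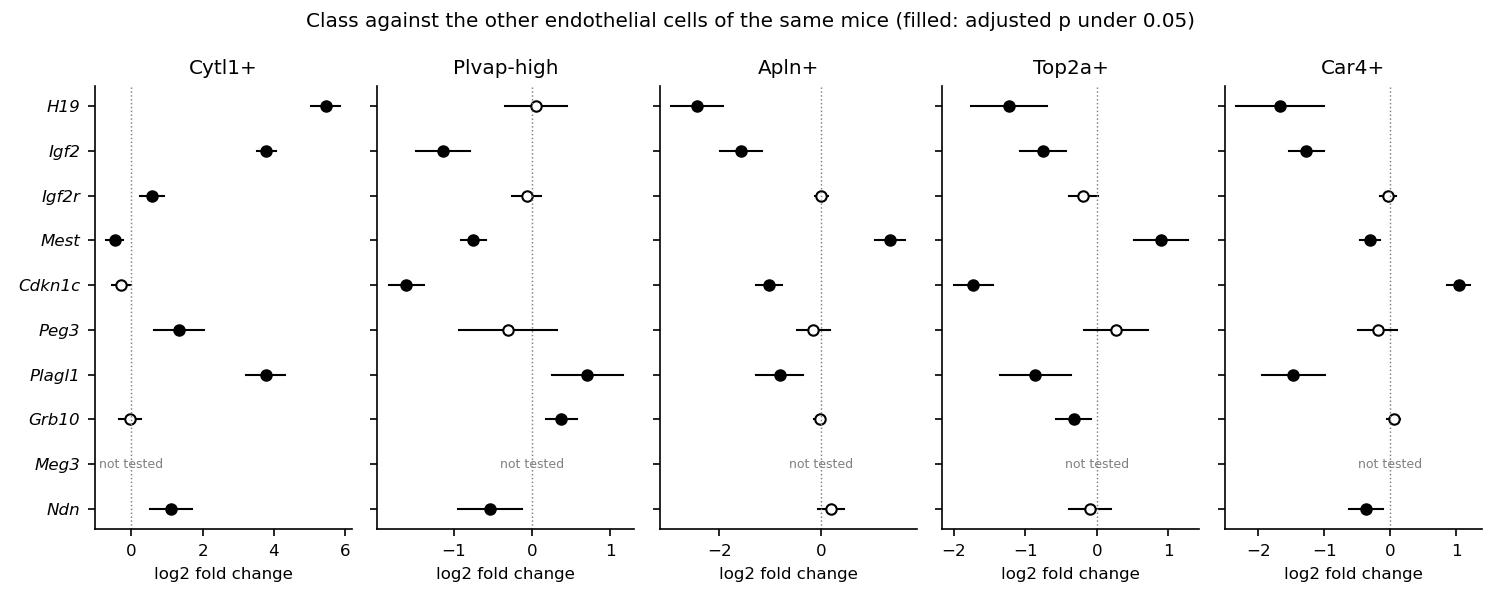
Log2 difference of each imprinted growth gene between a class and the other endothelial cells of the same mice, with its 95% interval, for 5 classes (Cytl1+ in 5 mice, Plvap-high in 4 MI mice, the others in 8 mice). Filled points passed an adjusted p of 0.05 in edgeR, Meg3 was below the filter, and the horizontal axes differ between panels. H19 lies at 5.45 and Igf2 at 3.79 in Cytl1+ cells, and Mest and Cdkn1c lie on opposite sides of 0 in Apln+ and Top2a+ cells.

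The sorted cells of other types showed where Meg3 and part of Ndn and Igf2 lay. Of 1167 Meg3 UMIs, 56.7% fell in fibroblasts and 37.0% in pericytes or smooth muscle cells, which made up 0.280% and 1.74% of cells, and 4.71% in endothelial cells. Meg3 stood at 783 CPM in 28 healthy and 1145 CPM in 59 MI fibroblasts, pooled over mice, with no test. Ndn stood at 223 and 104 CPM in those cells and at 55.7 and 70.2 CPM in pericytes or smooth muscle cells, against 9.78 and 12.1 CPM in endothelial cells. Igf2 stood at 118 and 83.6 CPM in pericytes or smooth muscle cells. Endothelial cells held 97.5% of the Mest and 96.2% of the Cdkn1c UMIs, against 88.8% of all UMIs. Cdkn1c stood at 511 CPM in healthy and 163 CPM in MI endothelial cells and at 249 and 179 CPM in pericytes or smooth muscle cells. After MI it was thus not higher in endothelial cells than in these cells. These MI cells also held Pecam1 at 427 CPM, and the part of endothelial transcripts in their Cdkn1c was not tested. In MI haematopoietic, fibroblast and erythroid or platelet cells Cdkn1c stood at 32.6, 63.4 and 163 CPM. Mest stood at 83.97 and 319 CPM in endothelial cells and at 9.28 and 56.7 CPM in pericytes or smooth muscle cells.

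By correlation of levels across 42 sums of a class in a mouse, among 8345 genes, the pattern of H19 was like that of Cytl1 (r = 0.964) and Dcn (0.957). The pattern of Igf2 was most like H19 (0.906), Cytl1 (0.899) and Dcn (0.895), and that of Plagl1 was like Dcn (0.969) and H19 (0.968). Mest was most like Tnfaip8l1 (0.945), Pxdn (0.928) and Nrp2 (0.925). Cdkn1c was most like Txnip (0.951), Aqp7 (0.941) and Jam2 (0.934). Igf2r (Rnf166, Sel1l and Cgnl1, 0.855 to 0.860), Peg3 (Cryab, Hmcn1 and Sulf1, 0.774 to 0.812), Grb10 (Gatsl3, Ntpcr and Afap1, 0.769 to 0.833) and Ndn (Rnf141, Sel1l and Acad9, 0.786 to 0.816) had looser matches. The matches depend on the setting. With a pseudocount of 1 the genes most like Igf2 were Fn1 (0.880), Ecm1 (0.875) and Tmem100 (0.840), and the first match of H19, Mest, Peg3 and Plagl1 changed too. With genes of at least 5 CPM the first match of Igf2 was Pdlim3 (0.922), that of Peg3 Pthlh (0.821) and that of Ndn Ifitm10 (0.836). Cdkn1c, Igf2r and Grb10 kept their first match under both. The sums share mice, libraries and class markers, Cytl1 itself placed one class, and r is a description only.

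Genes around the members were read from lists in the same MI comparison. Of 37 other imprinted genes in the table, 27 were tested, and 5 were higher and 5 lower after MI, which is 37.0% called against 38.4% of all genes. Their median log2 fold change was 0.04, against -0.02 over all genes. The placenta-imprinted Gatm and Tfpi2 rose by 1.46 and 0.95 on the log2 scale, as did the channel gene Kcnq1 (1.15). Its antisense Kcnq1ot1, the non-coding RNA that silences the paternal Cdkn1c domain, fell by 0.81, from 175.0 ± 32.2 to 106.0 ± 9.58 CPM (adjusted p = 0.00125). The counting was not stated to use strand, so reads of Kcnq1ot1 and Kcnq1 may not be separable. Impact (-0.59) and Mkrn3 (-0.66) were lower.

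In the IGF list 18 genes were tested, and 6 were higher and 3 lower (50% called against 38.4% of all genes, median log2 fold change 0.13). Igf1, the other ligand of the IGF receptor, rose from 6.85 ± 1.66 to 46.9 ± 14.4 CPM (log2 fold change 2.68, SE 0.24, adjusted p = 0.000118). The IGF-binding proteins Igfbp5 (2.66), Igfbp4 (1.49) and Igfbp3 (1.26) rose, as did the adaptor Shc1 (0.64), and the RNA-binding protein Igf2bp3 fell by 1.02. Igf1 is also a gene of macrophages. In endothelial cells the haematopoietic list summed to 42.5 to 178 CPM in healthy and 323 to 590 CPM in MI mice, with 10 of 16 tested genes higher, and its part in the Igf1 result was not tested. The fibroblast list summed to 14.7 to 35.4 CPM in healthy and 36.4 to 59.1 CPM in MI mice. Of its 9 tested genes 5 were higher and 1 lower, and its part in the rise of the IGF genes was not tested.

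Among CDK inhibitors and their partners in the first gap phase all 15 genes were tested, and 8 were higher and 2 lower. This is 66.7% called against 38.4% of all genes, with a median log2 fold change of 0.43. The cyclins Ccne1 (1.61) and Ccne2 (1.16), the kinase Cdk4 (0.66) and the inhibitors Cdkn2c (1.23) and Cdkn2a (0.94) rose. Cdkn1b, the close relative of Cdkn1c, fell by 0.91, from 74.3 ± 19.8 to 41.9 ± 3.8 CPM (adjusted p = 0.00232). Cdkn1a, the third inhibitor of this family, was not called (-0.22, adjusted p = 0.457). A Top2a UMI was held by 1.36% of the healthy and 10.3% of the MI endothelial cells, at median depths of 1896 and 4135 UMIs that were not made equal, and the part of cycling cells in these changes was not tested.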

How the data were processed

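The authors sorted CD31+Confetti+podoplanin- ventricular cells of 4 healthy and 4 MI mice and made 10x libraries. Per the labels they used Cell Ranger, genome build mm10, R 3.5.2 and Seurat 2.3, and deposited raw UMI counts per gene and cell after a filter on cells (the fewest genes per cell was 403). Columns not used numbered 0. Here, cells were set aside as another type when at least 3 markers of 1 list (2 for erythroid or platelet) held at least 0.5% of UMIs (1% haematopoietic, 5% erythroid or platelet), and no doublet caller was run. Classes needed 1 marker UMI (Plvap: 2 UMIs and 0.1%). Counts were summed per mouse, the replicate, and tested with edgeR 4.0.16 (R 4.3.3; TMM, filterByExpr, quasi-likelihood test, Benjamini-Hochberg over all genes tested, threshold 0.05), with the mouse as a block for classes, in mice with at least 20 cells of a class. Likeness was Pearson's r of log2(CPM + 10), sums of at least 50000 UMIs and genes of at least 10 CPM, with each mouse's mean taken off. A cell counted as copied when a shared barcode had at least 90% matching counts. The test was tried on simulated data. Named genes were all 10 members, up to 6 called genes with the largest change of each other list, and 3 like genes per member, of which 1 gene is not reported here. The members, lists and classes were chosen with earlier results of these data known. Alternatives were DESeq2 1.42.0, no low-count filter, cells thinned to 1000 UMIs, no copied cells, all deposited cells, stricter removal of other types, Xist as a covariate, no cycling cells, other class gates and each mouse left out; leaving out Cytl1+ cells was added after seeing the data. Sequences are from RefSeq (GRCm38.p6) and gene coordinates from GENCODE (GRCm38). Exact binomial intervals and limits from 0 UMIs cover counting error only, and intervals of fold changes carry the spread between mice.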

Additional observations from a re-analysis of the deposited data

Results flagged for a closer look

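Igf2 in Healthy 240 stood at 13.6 CPM, far from the other 3 healthy mice at 38.9 to 39.4 CPM, a gap that takes 0.983 of the range of the group. Healthy 228 shares copied cells with Healthy 239 and 227, and without them Igf2 stood at 38.6, 35.4, 38.9 and 13.6 CPM in Healthy 227, 228, 239 and 240, with a wider spread among the upper 3. Gaps over the limit used for groups of 4 are found by chance in about 1 in 20 groups, and 20 groups of a gene and a condition were looked at. The MI effect on Mest, as a ratio, differed between classes by the test of the difference, with a log2 difference from Car4+ cells of -1.29 in Apln+ and -1.66 in Top2a+ cells. In Car4+ cells Mest was higher in every MI mouse than in every healthy mouse, and its healthy level was lower there than in the other 2 classes.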

How the results depend on the processing

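No paired analysis was possible because the healthy and MI mice share no replicate numbers. The count of members called in the pooled MI comparison was 2 to 3 over the alternatives. Genes called there numbered 4721 in the main analysis and 2609 with cells thinned to 1000 UMIs. In Apln+ cells the count of members called by infarction was 1, and it was 2 with no filter on low counts, with 2 marker UMIs and with overlapping classes, and between 1 and 2 when a mouse was left out (2 without MI 250 or 256). In Top2a+ cells it was 0, and 1 with no filter. The count of members with a class-dependent MI effect was 1, and it was 2 in Apln+ and in Top2a+ cells with no filter and with overlapping classes, and between 1 and 2 in Apln+ cells when a mouse was left out (2 without Healthy 240 or MI 255). In Plvap-high cells 2 members were called after thinning. Directions reversed in 6 cases. These were Igf2r (0.039) and Peg3 (-0.12) after MI on thinning, Ndn after MI in all deposited cells (-0.022), Peg3 in Cytl1+ cells on thinning (-0.034), Igf2 in Plvap-high cells (0.16) and Mest in Car4+ cells (0.25) with overlapping classes. The causes were not tested. Per mouse, endothelial cells held 10 to 190 UMIs of Plagl1, 29 to 191 of Peg3, 62 to 318 of Ndn and 0 to 652 of H19. The part of low counts in the results of these genes was not tested.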
